A study of Bos taurus with 13 samples.

Results

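The genes that encode the adhesion molecules by which white blood cells roll on, stop at and cross the vessel wall were examined in whole blood of dairy cows with high or low milk cortisol. They were chosen by name, as *SELPLG*, *ITGAL*, *ITGAM*, *ITGB2*, *ITGA4*, *ITGB1*, *CD44*, *ICAM1* and *PECAM1*, and 8 of these 9 names were found among the 16095 gene names counted. *ICAM1* was not analysed here. RNA of 13 cows, 1 sample per cow, was analysed, with 7 cows in the high milk cortisol group (replicates 1 to 7) and 6 cows in the low group (replicates 8 to 13). All were lactating, clinically healthy Italian Red Pied cows (Italian Simmental) from 1 commercial farm, no treatment is named for either group, and the age of each cow is not given in the sources used here. The groups were formed on naturally occurring cortisol in milk, so the comparison is observational.

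Leukocytes are captured from flowing blood in steps. Selectins make brief bonds with sugar-bearing ligands, which lets a cell roll, and the main ligand on leukocytes is P-selectin glycoprotein ligand 1, encoded by *SELPLG*. Integrins, each a pair of an alpha and a beta chain, are then switched from a resting to an active form and hold the cell firmly on immunoglobulin-type molecules of the endothelium, after which molecules of the cell junctions, such as the product of *PECAM1*, take part in the crossing. These events are largely regulated on the protein, at the cell surface, whereas the values below are RNA of all blood cells together.

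Levels are given as CPM, the counts of a gene scaled to the total of its library over genes past the filter on low counts, times its normalization factor (TMM). Between 11045599 and 28124575 reads per cow were counted on named genes. The limit that a count of 0 allows, taken as 3 counts over these reads without the factor, was between 0.107 and 0.272 CPM. All 8 genes lay far above this limit in every cow. The first principal component of log2 CPM held 29.0% of the variance, and the cow of replicate 4, in the high group, stood apart on it with a score of 62.4 against -31.3 to 19.1 in the other cows. The 4 haemoglobin genes found by name took between 0.0282% and 0.815% of the counts on named genes in the high group. In the low group they took between 0.0114% and 0.0552%. Among them *HBB* reached 7511 CPM in its highest cow, against at most 21.2 CPM for *HBM* and 1.97 CPM for *HBQ1*. In all 13 count tables the header carries another animal number than the title of the table, so the group of each cow rests on the sample labels alone.

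On the UMD3.1 build of the cattle genome, to which the count tables refer, the 8 genes lie on 7 chromosomes. *SELPLG* (chromosome 17, from 66557143 to 66573393, plus strand) has 2 exon blocks with 2106 bases. *ITGAL* (chromosome 25, from 26910424 to 26961727, plus strand) and *ITGAM* (chromosome 25, from 27602222 to 27639821, plus strand) are neighbours at a distance of 640494 bases, and *ITGAD*, a further alpha chain, lies 69449 bases from *ITGAM*. Their partner *ITGB2* is on chromosome 1, from 145104446 to 145133581 on the minus strand. *ITGA4* (chromosome 2, from 15115673 to 15207508, minus strand) and its partner *ITGB1* (chromosome 13, from 20248945 to 20292114, plus strand) are likewise on separate chromosomes. *CD44* (chromosome 15, from 66454331 to 66541790, plus strand) has 21 exon blocks, the exons being of variable use in its transcripts, and *PECAM1* (chromosome 19, from 49175892 to 49238414, minus strand) has 16. No exon of the 8 genes overlaps an exon of another named gene in these tables, and reads of all the transcripts of a gene were summed.

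The levels of the genes were first set in order, as CPM per kilobase of exon. *SELPLG* was the highest of the 8, at 592 ± 165 CPM per kilobase (SD, n = 13), above 98.8% of the 11033 genes tested. It was followed by *ITGB2*, the beta chain shared by the leukocyte integrins, at 354 ± 49.5, and by *CD44*, the hyaluronan receptor, at 210 ± 20.9 CPM per kilobase. *ITGB1* (127 ± 21.7) and *ITGAL*, the alpha chain of LFA-1 (122 ± 13.7), came next, and their order could not be told, as *ITGB1* was higher in 8 of 13 cows with a mean fold of 1.03 (exact two-sided sign-flip test, adjusted p = 0.556 over 7 neighbouring pairs). *ITGAM*, the alpha chain of Mac-1 on neutrophils and monocytes, had 46.7 ± 7.70 CPM per kilobase, and *ITGA4*, the alpha chain of VLA-4 on lymphocytes and monocytes, had 30.4 ± 12.8. *PECAM1*, found on platelets, leukocytes and endothelium, was the lowest at 21.2 ± 3.17, still above 62.6% of the genes tested.

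The other neighbours in this order passed the test, not all with the same margin. *SELPLG* over *ITGB2* (1.63-fold), *ITGB2* over *CD44* (1.68-fold), *CD44* over *ITGB1* (1.67-fold) and *ITGAL* over *ITGAM* (2.63-fold) held in 13 of 13 cows each (exact sign-flip test, adjusted p = 0.000427 for each). *ITGAM* exceeded *ITGA4* in 11 of 13 cows (1.61-fold, exact test, adjusted p = 0.00410), and *ITGA4* exceeded *PECAM1* in 10 of 13 (1.37-fold, exact test, adjusted p = 0.0125). The mean log2 difference of *ITGA4* and *PECAM1*, 0.45, was smaller than its SD over cows, 0.54. The order was the same in each of the 13 sets that left out 1 cow. The length is that of all annotated exons, so a level per kilobase is too low for a gene whose long transcripts are little used.

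**Figure D1:**
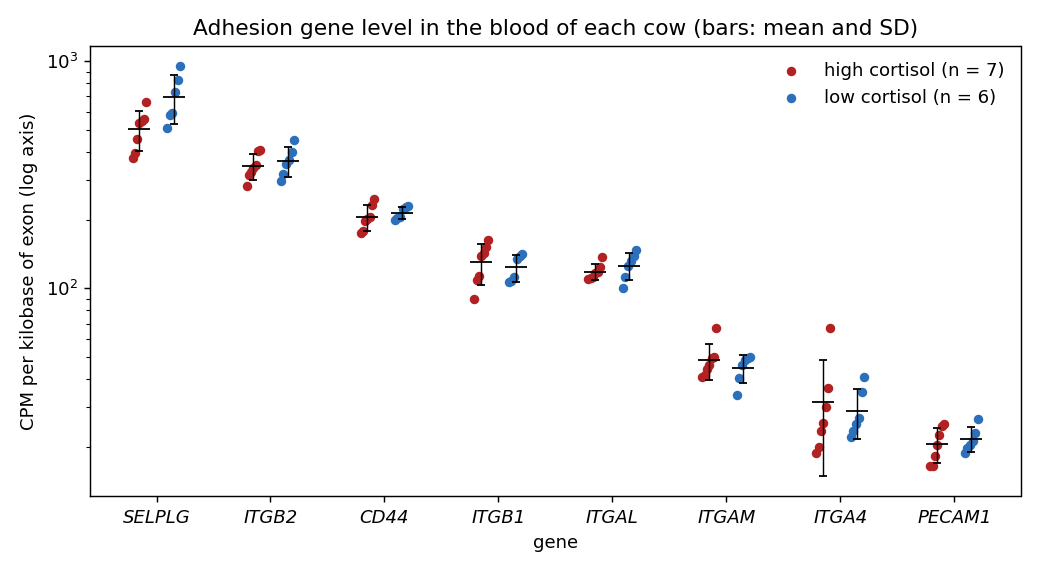
Levels of the 8 adhesion genes in CPM per kilobase of exon (log axis), with 1 point per cow, 7 cows of the high and 6 of the low group, and the mean ± SD of each group. The points of both groups overlap for every gene, and the cow with the highest *ITGA4* stands clear of the other cows.

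The spread between cows was unequal among the genes. *CD44* had the smallest SD of the 8 genes, 0.14 on the log2 CPM scale, at percentile 6.44 of the genes tested. Its highest cow had 1.41 times the CPM of the lowest. *ITGAL* (SD 0.16, percentile 9.63) and *ITGB2* (SD 0.20, percentile 19.9) also had small SDs, and the highest cow had 1.46 times the *ITGAL* level of the lowest. *PECAM1* (SD 0.22), *ITGAM* (SD 0.23) and *ITGB1* (SD 0.25) lay between percentiles 25.9 and 36.7. *SELPLG* (SD 0.39, percentile 65.0, 2.54-fold from lowest to highest) and *ITGA4* (SD 0.50, percentile 78.1, 3.56-fold) varied most. The range of *ITGA4* rested on replicate 4, without which it was 2.17-fold with an SD of 0.35, a value computed after the data were seen. The median SD of the 8 genes was 0.22, against 0.31 over all genes tested. These comparisons were not matched for level, and the SD also holds counting error, which weighs more on genes with few counts. *CD44* lay above 95.9% of the genes tested in level, so its low percentile cannot be read as steadiness beyond its depth.

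High and low cows were then compared to ask whether the adhesion genes of blood differ with milk cortisol. All 8 genes passed the filter on low counts. None of them differed past an adjusted p of 0.05, nor did any of the 11033 genes tested (0%, edgeR's quasi-likelihood test), and the adjusted p of each of the 8 was 0.998. At an unadjusted p under 0.05, 1 of the 8 genes, *SELPLG*, was lower in the high group, against 231 of all genes tested (2.09%), of which the part lower in the high group was 1.16% of the genes tested. DESeq2 also called 0 of the 8 genes, against 1 of 14346 genes tested (0.00697%), and limma-voom called 0 of the 8 and 0 of all. At an unadjusted p under 0.05 *SELPLG* was again the single one in both, against 2.43% and 1.98% of the genes tested. The CPM of the groups overlapped for each of the 8 genes, and was without overlap in 3 of all genes tested (0.0272%). Estimates were above 0 for 3 of the 8 genes and below 0 for 5, and their median log2 fold change was -0.07, against 0.01 over all genes. The median size of the fold change was 0.08 for the 8 genes and 0.11 for all genes.

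*SELPLG* showed the largest difference among the 8 genes. Its level ran from 787 CPM to 1389 CPM in the high group, with a median of 1120.4 CPM, and from 1067 CPM to 1996 CPM in the low group, with a median of 1398 CPM. The groups overlapped, but none of the 7 high cows reached the low median, the lowest 2 being replicates 4 and 7, and the highest 2 cows of all, replicates 8 and 10, were in the low group. The means were 1057 ± 212 CPM (SD, n = 7) and 1469 ± 356 CPM (SD, n = 6). The log2 fold change was -0.48 with a standard error of 0.16 (edgeR, unadjusted p = 0.0103, adjusted p = 0.998). The exact two-sided permutation test over the 1716 splits of the cows gave p = 0.0262 for *SELPLG* alone, where the smallest possible p is 5.83e-04. The size of the difference exceeded that of 94.3% of the genes tested. With the haemoglobin share of each cow as a covariate the estimate was -0.28 (edgeR, unadjusted p = 0.201, where 1.09% of all genes had an unadjusted p under 0.05), and the part of haemoglobin in this difference was not tested further. In whole blood, fewer cells of a type and less RNA per cell cannot be told apart.

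Of the selectins, *SELE*, whose product is known from activated endothelium, was rare in blood, with 15 to 105 counts per cow. Its level was 1.97 ± 0.66 CPM (SD) in the high group and 3.21 ± 1.05 CPM in the low group, and each of the 7 high cows was below the low median (log2 fold change -0.69, standard error 0.28, edgeR, unadjusted p = 0.0267, adjusted p = 0.998). *SELE* lost an unadjusted p under 0.05 in 5 of the 13 fits that left out 1 cow, and with the haemoglobin covariate (log2 fold change -0.60, edgeR, unadjusted p = 0.136). The platelet selectin *SELP* had a log2 fold change of -0.43 (edgeR, unadjusted p = 0.180).

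**Figure D2:**
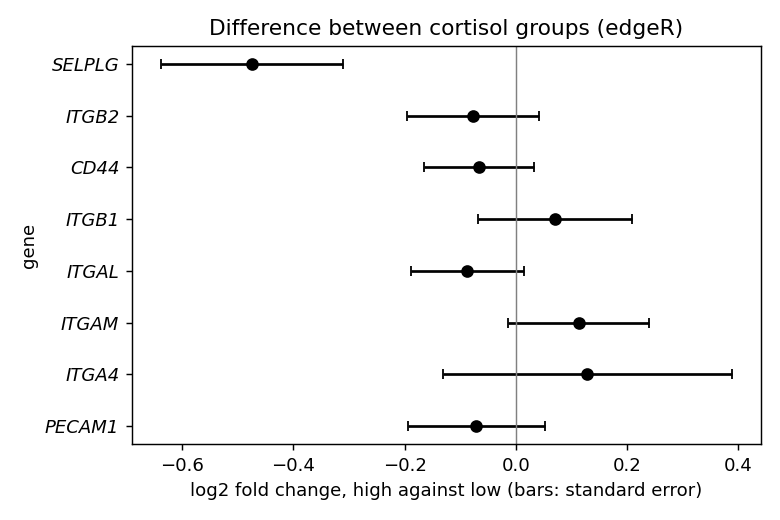
Log2 fold change of the high against the low group for the 8 genes, with bars of 1 standard error either side, from edgeR on 7 and 6 cows. *SELPLG* lies farthest from 0, at -0.48, and the other 7 genes lie between -0.09 and 0.13.

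The integrins of the beta2 family, which are restricted to leukocytes, gave small estimates. *ITGAL*, the alpha chain of LFA-1 on nearly all white blood cells, had 415 to 520.0 CPM in the high group (median 441 CPM) and 380.2 to 554 CPM in the low group (median 483 CPM). The high cows lay within the range of the low cows, and the log2 fold change was -0.09 with a standard error of 0.10 (edgeR, unadjusted p = 0.406). *ITGAM* had 141 to 231 CPM in the high group (median 159.9 CPM) and 118 to 174 CPM in the low group (median 164 CPM), with a log2 fold change of 0.11 and a standard error of 0.13 (edgeR, unadjusted p = 0.384). The estimate for *ITGAM* was 0.02 without replicate 3 and 0.05 without replicate 13. The value of 231 CPM belonged to replicate 3, the lowest value was that of replicate 13 in the low group, and the other 11 cows lay between these. *ITGB2*, the beta chain of both, had 787 to 1136 CPM in high cows (median 943 CPM) and 829.8 to 1263 CPM in low cows (median 1004 CPM). The ranges overlapped, with the low group reaching higher (log2 fold change -0.08, standard error 0.12, edgeR, unadjusted p = 0.525).

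The balance of the chains within a cow was examined as ratios of levels per kilobase, since the alpha chains share 1 beta chain. The ratio of *ITGAM* to *ITGAL*, the myeloid against the general alpha chain, had a median of 0.376 in high cows (range 0.328 to 0.570) and of 0.347 in low cows (range 0.272 to 0.481). The ranges overlapped, and the mean log2 ratio was 0.19 higher in the high group (exact permutation test, p = 0.251, adjusted p = 0.502 over 4 ratios). *ITGAM* to *ITGB2* had medians of 0.147 and 0.125, a log2 difference of 0.18 (exact permutation test, p = 0.172, adjusted p = 0.502), and *ITGAL* to *ITGB2* had medians of 0.357 and 0.340, a log2 difference of -0.01 (exact permutation test, p = 0.962). None of these ratios passed the test.

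The VLA-4 chains, by which lymphocytes and monocytes bind VCAM-1 and fibronectin, were likewise not separated by group. *ITGA4* had 65.4 to 233 CPM in the high group (median 88.8 CPM) and 77.6 to 142 CPM in the low group (median 91.0 CPM). The value of 233 CPM was that of replicate 4, which also stood apart on the first principal component, and the next highest cow had 142 CPM. The log2 fold change was 0.13 with a standard error of 0.26 (edgeR, unadjusted p = 0.627), and -0.17 without replicate 4, so the direction rests on that cow. *ITGB1* had 331 to 602 CPM in the high group (median 513 CPM) and 392 to 522 CPM in the low group (median 456 CPM), and the low cows lay within the range of the high cows (log2 fold change 0.07, standard error 0.14, edgeR, unadjusted p = 0.617). The ratio of *ITGA4* to *ITGB1* per kilobase had a median of 0.216 in high and 0.235 in low cows, and its mean log2 value differed by -0.02 (exact permutation test, p = 0.914, adjusted p = 0.962).

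*CD44*, by which leukocytes bind hyaluronan and which can also carry selectin-binding sugars, had 579 to 816 CPM in the high group (median 665 CPM) and 661 to 758 CPM in the low group (median 711 CPM). The low cows lay wholly within the range of the high cows, and the log2 fold change was -0.07 with a standard error of 0.10 (edgeR, unadjusted p = 0.510). *PECAM1* had 57.1 to 86.9 CPM in the high group (median 70.2 CPM) and 65.3 to 91.2 CPM in the low group (median 72.2 CPM), also with wide overlap (log2 fold change -0.07, standard error 0.12, edgeR, unadjusted p = 0.570). *PECAM1* is made by endothelium as well, and the 10 endothelial markers, all of them in the tables, summed to between 30.7 and 87.2 CPM in high cows and between 42.7 and 115 CPM in low cows. These markers were unequal in level. In its highest cow *VWF* had 96.7 CPM, *TIE1* 12.9, *ERG* 9.09, *KDR* 4.02, *TEK* 1.53 and *ESAM* 1.38 CPM. *CDH5*, *CLDN5*, *ROBO4* and *EMCN* reached at most 0.767, 0.464, 0.346 and 0.260 CPM in any cow.

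**Figure D3:**
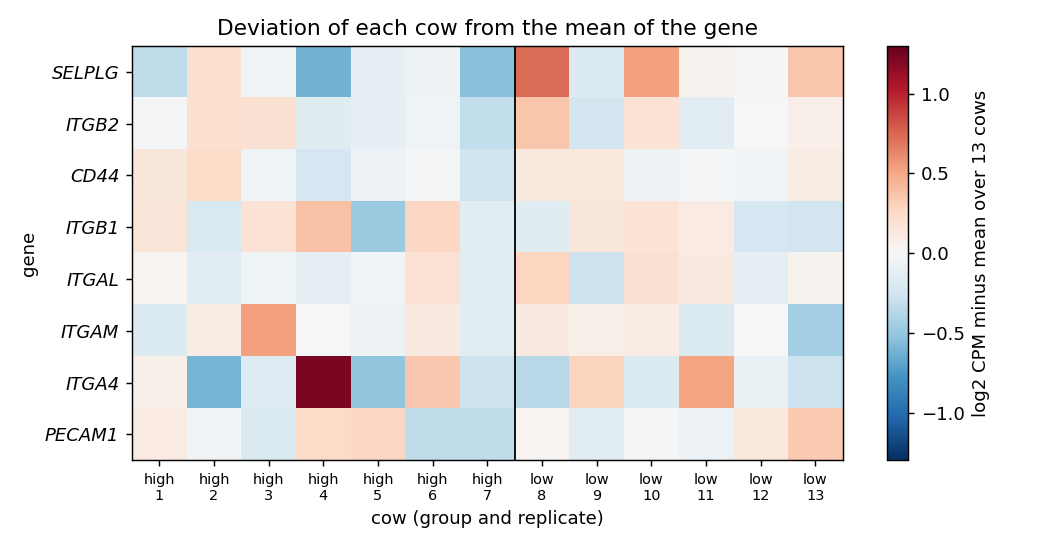
Log2 CPM of each gene in each cow as a difference from the mean of the gene over the 13 cows, with genes in rows, cows in columns by group and replicate number, and colour for the size of the difference. *ITGA4* in replicate 4 is among the strongest deviations, whereas the row of *CD44* stays near 0 in all cows.

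The wider adhesion cascade was described from a list of 88 genes, of which 79 were in the tables and 69 passed the filter on low counts. None passed an adjusted p of 0.05 in edgeR, and 1 of the 69, *SELE*, had an unadjusted p under 0.05 (1.45%, against 2.09% of all genes tested). Estimates were higher in the high group for 27 genes and lower for 42, with a median log2 fold change of -0.05. Over all 11033 genes tested, 5885 were higher and the median was 0.01. Among the 12 selectins, selectin ligands and enzymes that build their sugars, 7 estimates were higher and 5 lower, and *SPN*, the leukocyte sialoglycoprotein CD43, had 160 ± 21.3 CPM per kilobase (SD, n = 13) with a log2 fold change of -0.00 (edgeR, unadjusted p = 0.970). *B4GALT1*, a galactosyltransferase, had 98.0 ± 12.9 CPM per kilobase (log2 fold change -0.15, edgeR, unadjusted p = 0.184). Of 13 other integrin chains, 5 were higher and 8 lower. *ITGB7*, the beta chain of the gut-homing integrin, was the most abundant of them, at 363 ± 65.2 CPM per kilobase (log2 fold change -0.16, edgeR, unadjusted p = 0.289). The platelet chain *ITGA2B* had 34.8 ± 10.9 CPM per kilobase (log2 fold change -0.28, edgeR, unadjusted p = 0.207).

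The 13 immunoglobulin-type and junction molecules divided into 6 higher and 7 lower. *ICAM3*, a leukocyte ligand of LFA-1, had 349 ± 99.4 CPM per kilobase (log2 fold change -0.14, edgeR, unadjusted p = 0.522), and *CD99*, which takes part in the crossing of the endothelium, had 321 ± 112 CPM per kilobase (log2 fold change -0.29, edgeR, unadjusted p = 0.233). Of the 24 genes of integrin activation and linkage to the cytoskeleton, 5 estimates were higher and 19 lower, with a median of -0.09. The actin-binding *CORO1A* (1892 ± 348 CPM per kilobase, log2 fold change -0.09, edgeR, unadjusted p = 0.556) and *LCP1* (893 ± 127, log2 fold change -0.12, edgeR, unadjusted p = 0.317) were the most abundant. The lean of these estimates to 1 side was not tested. Directions depend in part on the normalization, as 5785 to 6369 of the 11033 genes were higher in the high group under the normalizations used. Of the 7 genes of the shedding of surface proteins, 4 were higher and 3 lower, and the protease *ADAM8* had 96.6 ± 31.9 CPM per kilobase (log2 fold change -0.10, edgeR, unadjusted p = 0.659).

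Whether the genes vary together across cows was examined for the 28 pairs of the 8 genes, on log2 CPM over 13 cows. Correlations were positive in 15 pairs and the median Pearson r was 0.05, so the genes did not move as 1 block. *SELPLG* and *ITGB2* were the most closely related, with r = 0.80 (permutation p = 0.00115, adjusted p = 0.0199 over 28 pairs) and Spearman rho = 0.79 (permutation p = 0.00224, adjusted p = 0.0627). Without the cows farthest from the median of *SELPLG*, replicates 8 and 10, r was 0.65 (permutation p = 0.0298). The relation of *SELPLG* and *ITGB2* was present within the high group (r = 0.81) and within the low group (r = 0.96). Cows with much *SELPLG* RNA thus also had much *ITGB2* RNA in both groups. By r with *SELPLG*, *ITGB2* was at rank 205 of 7585 genes with a median of at least 10 CPM, so the relation was not particular to this pair.

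*ITGA4* and *ITGB1*, the chains of 1 integrin, were the other pair that passed, with r = 0.77 (permutation p = 0.00142, adjusted p = 0.0199) and rho = 0.71 (permutation p = 0.00866, adjusted p = 0.121). The r was 0.76 without replicates 4 and 11, 0.82 within the high group and 0.62 within the low group. Many other genes were closer, as *ITGB1* was at rank 852 of 7585 genes by r with *ITGA4*, and *ITGA4* at rank 477 by r with *ITGB1*. With the first principal component of all genes, r was 0.92 for *ITGA4* and 0.79 for *ITGB1*, against -0.63 for *SELPLG* and -0.44 for *ITGB2*. The part of this component in the 2 pairs was not tested. By Spearman's rho, no pair passed after adjustment. Both calls by Pearson's r were lost when the cow of replicate 7 (adjusted p = 0.0596 for each) or of replicate 8 (adjusted p = 0.127 for *SELPLG* with *ITGB2* and 0.0868 for *ITGA4* with *ITGB1*) was left out, and the second was lost without replicate 4 (adjusted p = 0.116), although r stayed between 0.71 and 0.85 for the first pair and between 0.73 and 0.82 for the second over all 13 omissions.

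**Figure D4:**
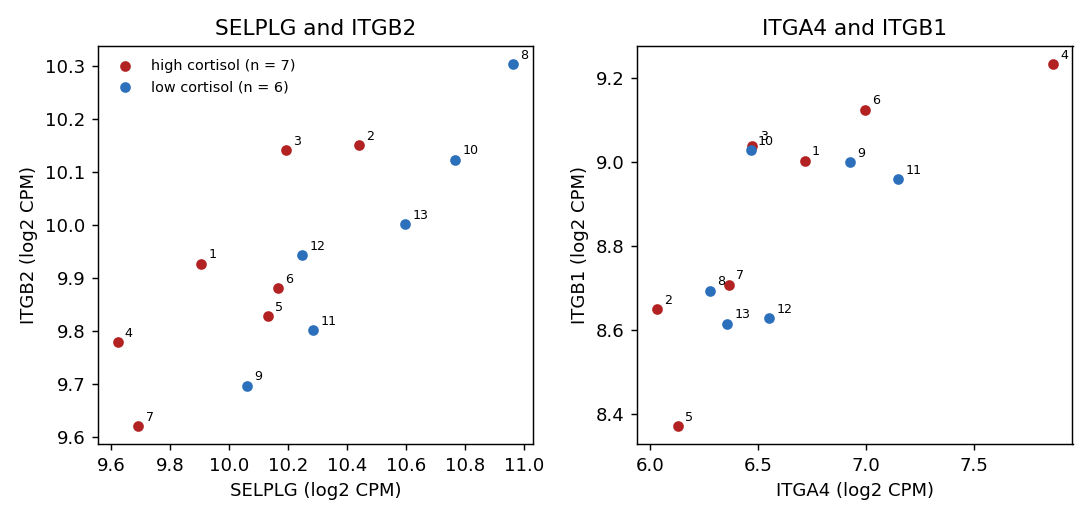
Log2 CPM of *SELPLG* against *ITGB2* and of *ITGA4* against *ITGB1*, with 1 point per cow numbered by replicate and coloured by group. Both panels rise from left to right (r = 0.80 and 0.77 over 13 cows), and replicate 4 is at the upper end of *ITGA4*.

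No pair of beta2 integrin chains passed, and their correlations were not tested against that of the VLA-4 chains. *ITGAL* with *ITGB2* gave r = 0.53 (adjusted p = 0.317), with 0.04 within the high and 0.81 within the low group. *ITGAM* with *ITGB2* gave r = 0.40 (adjusted p = 0.479), with 0.69 within the high and 0.24 within the low group, and the alpha chains *ITGAL* and *ITGAM* gave r = -0.03. *SELPLG* with *ITGAL* had r = 0.63 (permutation p = 0.0212, adjusted p = 0.198), which was 0.29 without the 2 cows farthest from the median. *SELPLG* and *ITGA4* ran in opposite directions, with r = -0.52 (adjusted p = 0.317).

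**Figure D5:**
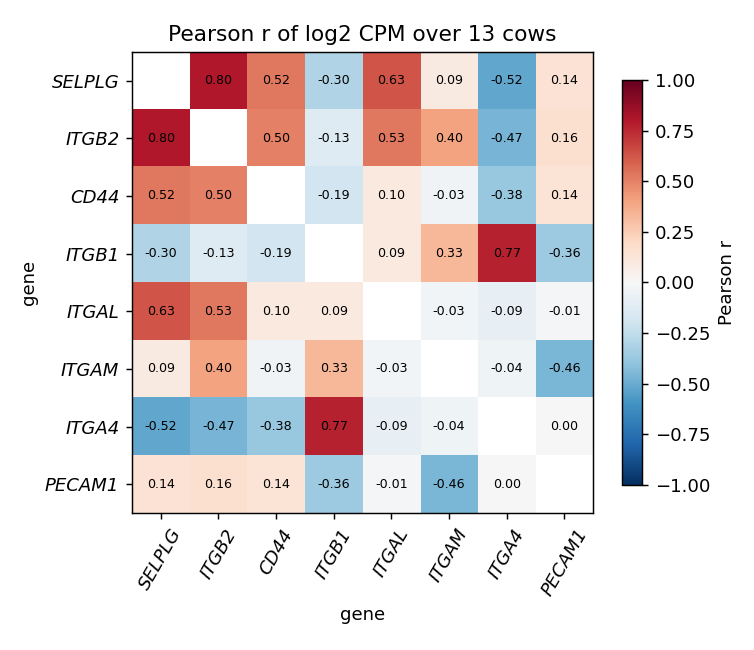
Pearson r of log2 CPM over 13 cows for the pairs of the 8 genes, with colour for the sign and size of r. *SELPLG* with *ITGB2* (0.80) and *ITGA4* with *ITGB1* (0.77) are the strongest pairs.

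The genes whose pattern was most like that of each adhesion gene were taken by Pearson r over the 13 cows, among 7585 genes with a median of at least 10 CPM, as a description without a test. For *SELPLG* they were *CD68*, a lysosomal protein of phagocytes (r = 0.97), *CSF3R*, the receptor of the granulocyte growth factor G-CSF (r = 0.96), and *SESN2* (r = 0.94). Their log2 fold changes were -0.53, -0.45 and -0.47. As they were chosen for likeness to *SELPLG* over the same cows, whose own value was -0.48, this direction follows from the choice. *CD68* is also of the monocyte and *CSF3R* of the neutrophil marker list described further on, and those lists did not follow *SELPLG* as a whole. Of the 10 neutrophil markers counted, 7 had a positive and 3 a negative r with *SELPLG*, down to -0.36 for *S100A8*, and 3 had a fold change above 0. Of the 10 monocyte markers, 6 had a positive and 4 a negative r, down to -0.40 for *LYZ*, and 7 had a fold change above 0. For *ITGB2* they were *TYK2*, a kinase of cytokine receptors (r = 0.94), *TLN1*, talin, which binds the tail of integrin beta chains (r = 0.92), and *FCHSD1* (r = 0.92). For *CD44* they were *VIM*, vimentin (r = 0.93), *PGM1* (r = 0.91) and *KHK* (r = 0.89).

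For *ITGA4* they included *IKZF5* (r = 0.96) and *TDG* (r = 0.95), and both were highest in replicate 4, without which r was 0.911 and 0.906. For *ITGB1* they were *BCAP29* (r = 0.96), *TMEM251* (r = 0.93) and *RCHY1* (r = 0.93). *ITGAM* was most like *CWC25* (r = 0.83), *CD244*, a receptor of NK cells (r = 0.82), and *SYNE1* (r = 0.80), and without replicate 3 the values for *CD244* and *SYNE1* were 0.66 and 0.59. The nearest gene of *ITGAL* was *MED12* (r = 0.82) and that of *PECAM1* was *DYNC1LI2* (r = 0.86). The 13 points share library, depth and cell make-up in every such pair.

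The level of an adhesion gene in whole blood also depends on which cells are present, so the genes were set beside marker lists of 9 cell types. The neutrophil list, with 10 of 16 markers in the tables, summed to between 4284 and 8977 CPM in high cows and between 6648 and 9360 CPM in low cows, and its mean log2 level was 0.22 lower in the high group (exact permutation test, p = 0.223, adjusted p = 0.524 over 9 lists). The erythroid list summed to between 379 and 7844 CPM in high and between 141 and 573 CPM in low cows. Its mean log2 level was 0.93 higher in the high group (exact permutation test, p = 0.0175, adjusted p = 0.157). The adjusted p of this test was 0.0390 without replicate 1, and between 0.0974 and 0.432 when any other cow was left out. The differences of the T cell (-0.02), B cell (0.23), monocyte (0.01), cytotoxic and NK (0.16), platelet (-0.24), eosinophil (0.28) and endothelial (0.05) lists had exact p between 0.195 and 0.967. The mean log2 levels used only markers that passed the filter on low counts. These were 6 of 12 for the erythroid, 7 of 10 for the platelet, 3 of 10 for the eosinophil and 6 of 10 for the endothelial list.

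None of the 72 relations between the 8 genes and the 9 lists passed adjustment. *ITGAM* with the eosinophil list had r = 0.70 (permutation p = 0.00868, adjusted p = 0.618) and rho = 0.56 (permutation p = 0.0496), and r = 0.30 without replicates 3 and 13. That list was scored on 3 of its 10 markers only, *IL5RA*, *CCR3* and *ALOX15*, as 5 were in the tables and 3 passed the filter. *CD44* with the erythroid list had r = -0.63 (permutation p = 0.0201, adjusted p = 0.618) and rho = -0.51 (permutation p = 0.0781). *SELPLG* had r = 0.51 with the neutrophil list (permutation p = 0.0755, adjusted p = 0.618) and rho = 0.61 (permutation p = 0.0302, adjusted p = 0.524). With the erythroid list *SELPLG* had r = -0.53 (permutation p = 0.0604, adjusted p = 0.618) and rho = -0.54 (permutation p = 0.0587). By rho, *CD44* with the B cell list (-0.63, permutation p = 0.0249) and *PECAM1* with the eosinophil list (-0.62, permutation p = 0.0269) were also under 0.05 before adjustment (adjusted p = 0.524 for each). Within the groups the *SELPLG* and neutrophil relation was 0.63 in high cows and -0.06 in low cows, and the part of cell make-up in the *SELPLG* difference was not tested beyond a fit with the difference of the neutrophil and T cell levels as a covariate, in which it was -0.42 (edgeR, unadjusted p = 0.0179, where 2.47% of all genes had an unadjusted p under 0.05).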

How the data were processed

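RNA of whole blood, collected in PAXgene tubes without globin depletion, was sequenced (Illumina HiSeq) in 13 cows. The authors deposited counts, whole numbers of reads per gene name without normalization. Per the file headers, counting was by featureCounts 1.4.6-p3 on Ensembl 88 models of UMD3.1, from alignments in a folder named goat, whereas the submitters' processing notes list STAR 2.7.3, Subread 1.6.5 and ARS-UCD1.2. The unnamed entry (13.9% to 16.7% of counts) was left out. No pair of libraries was identical.

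After TMM normalization the deposited counts were turned into CPM and log2 CPM with a prior count of 2, and groups were compared with edgeR 4.0.16 (R 4.3.3, robust quasi-likelihood fit, no covariate, filterByExpr with minimum count 10 and total 15) and Benjamini-Hochberg adjustment over all genes tested. The standard error of a fold change was obtained from the test's F statistic (estimate over root F). Permutation tests were two-sided, exact for groups and neighbours and with 100000 resamples for correlations. Depth limits cover counting error only.

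Alternatives were DESeq2 1.42.0, limma-voom (limma 3.58.1), other factors and filters, a fit that is not robust, the haemoglobin share or the neutrophil minus T cell level as a covariate, Spearman's rho, and each cow left out. The edgeR test was tried on simulated counts, and the permutation tests on simulated normal values. The genes, lists and tests were chosen with earlier results of these data known. Named cascade genes were the 2 most abundant of each list and those at an unadjusted p under 0.05, and alike genes were the 3 of highest r. *SELP* was named after its value was seen. Some genes of the lists are not reported here. With *ICAM1* not analysed here, 28 pairs and 7 neighbours remained.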

Additional observations from a re-analysis of the deposited data

Results flagged for a closer look

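Of 24 sets of cows, 12 measures in the high and in the low group, 4 held a cow farther from the others than Dixon's 95% limit, which chance passes in about 1 in 20 such groups. In the high group *ITGAM* was 231 CPM in replicate 3, against 141 to 173 CPM in the other cows. *ITGA4* was 233 CPM in replicate 4, against 65.4 to 127 CPM in the other high cows, and the ratio of *ITGA4* to *ITGB1* per kilobase was 0.409 in the same cow, against 0.172 to 0.241. These last values share the *ITGA4* count. In the low group the ratio of *ITGAL* to *ITGB2* was 0.412 in replicate 11, against 0.319 to 0.350 in the others.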

How the results depend on the processing

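No alternative called any of the 8 genes at an adjusted p of 0.05, and 172 of 176 fold changes kept their direction. With the haemoglobin covariate *CD44* (0.0865), *ITGB2* (0.0871) and *PECAM1* (0.0826) turned positive, and 0 of the 8 genes had an unadjusted p under 0.05. *ITGA4* was -0.17 without replicate 4 and up to 0.25 without another cow. *SELPLG* stayed between -0.55 and -0.28, and without 1 cow its unadjusted p was 0.00400 to 0.0353 (edgeR). The other estimates were near 0 and moved by over 1.5 times without 1 cow, from -0.11 to -0.03 (*CD44*), -0.14 to -0.03 (*ITGAL*), 0.02 to 0.15 (*ITGAM*), -0.13 to -0.00 (*ITGB2*), 0.01 to 0.14 (*ITGB1*) and -0.13 to -0.01 (*PECAM1*). Cascade genes at an unadjusted p under 0.05 numbered 1 with the haemoglobin covariate (*JAM2* in place of *SELE*), 3 with no filter, 2 with DESeq2, 2 with the neutrophil and T cell covariate and 0 to 2 without 1 cow. Correlated pairs numbered 0 by Spearman and 0 to 2 without 1 cow. Without 1 cow the log2 differences ranged from -0.164 to 0.0555 (*ITGA4* to *ITGB1*), from -0.0458 to 0.0530 (*ITGAL* to *ITGB2*), from 0.105 to 0.276 (*ITGAM* to *ITGAL*), from 0.102 to 0.265 (*ITGAM* to *ITGB2*), from -0.0688 to 0.0387 (T cell list), from -0.0703 to 0.138 (monocyte), from -0.0311 to 0.126 (endothelial), from -0.436 to -0.0306 (platelet), from 0.0271 to 0.455 (eosinophil), from -0.319 to -0.133 (neutrophil), from 0.146 to 0.325 (B cell), from 0.0983 to 0.246 (cytotoxic and NK) and from 0.687 to 1.09 (erythroid). The causes were not tested. No paired analysis was possible because the groups hold different cows, chosen by the cortisol in their milk. Depth did not limit the 8 genes, whereas *SELE* rests on 15 to 105 counts.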

Other observations

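The ratio of *SELPLG* to *ITGB2* per kilobase, chosen after the values were seen and given without a test, was 1.19 to 1.64 in the high group (median 1.39) and 1.64 to 2.10 in the low group (median 1.93). All 7 high cows were below the low median, and the highest high cow (replicate 5) and the lowest low cow (replicate 12) were nearly equal.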
